A study of Mus musculus with 2 samples.

Results

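The cells described here are germ cells of a Chd4 siRNA culture, split by how much Chd4 RNA each cell still carried. Chd4 encodes an ATPase of the nucleosome remodelling and deacetylase (NuRD) complex. A cell counted as a germ cell when its summed unique molecular identifiers (UMIs, each standing for 1 captured RNA molecule) of Ddx4, Dazl, Mael, Dnd1 and Zbtb16 exceeded those of the fibroblast genes Col1a1, Col1a2, Col3a1, Fn1 and Sparc. Germ cells with at least 9000 UMIs in named genes were ranked by Chd4 UMIs over total UMIs, and the lowest of 3 equal groups (the lowest tertile) was compared with the highest. Of 860 complete cells in the Chd4 siRNA library, 760 were germ cells and 695 were ranked, and the lowest, middle and highest tertiles held 231, 233 and 231 cells. The compared cells were thus 462 of the 1676 complete cells in the series. The same ranking of the 665 germ cells of the control siRNA library, with 221, 223 and 221 cells per tertile, shows what a ranking by Chd4 gives without Chd4 siRNA.

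Both libraries came from undifferentiated spermatogonia of adult C57BL/6 mouse testes, selected for the surface protein THY1 and grown in serum-free medium with GDNF and bFGF on mitomycin-treated SNL76/7 fibroblasts. Cells taken off this feeder layer received 75 pmol of Chd4 siRNA, or of control siRNA, with 2 µL Lipofectamine on plastic for 24 h. Equal numbers of cells from 3 biological replicates were pooled per group, so each group is 1 library and the replicates cannot be told apart. No p-value is given, because cells of 1 library are not replicates, and every interval is a 95% interval that covers counting error only.

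CHD4 slides and repositions nucleosomes, and NuRD joins this activity to the histone deacetylases HDAC1 and HDAC2. GDNF from the niche acts through the receptor tyrosine kinase RET to sustain spermatogonial stem cells, and target genes such as Bcl6b, Etv5, Lhx1 and Egr2 respond to it in culture. The integrated stress response and the unfolded protein response raise transcription factors such as ATF4 and DDIT3 (CHOP) when translation or protein folding is disturbed.

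Chd4 (ENSMUSG00000063870, chr6:125095981-125130591, GRCm38) was at 253 counts per 1000000 UMIs (CPM) over all ranked germ cells under Chd4 siRNA and at 533 CPM under control siRNA. The following Chd4 levels chose the cells, so they describe the split and support nothing else. In the lowest, middle and highest tertile of the Chd4 siRNA library, Chd4 was at 65.8 CPM (58.1 to 74.3), 209 CPM (195 to 224) and 492 CPM (470.0 to 515). The tertiles of the control library, chosen in the same way, were at 229, 496 and 889 CPM. The median cell had 1, 3 and 7 Chd4 UMIs in the 3 tertiles under Chd4 siRNA, and 58 cells of the lowest tertile, 25.1%, had none. At the boundaries the ranking separates nearly equal cells: the last cell inside the lowest tertile had 2 Chd4 UMIs of 14336 and the first outside it 4 of 28330. The last cell below the highest tertile had 5 of 17293, and the first cell in it 4 of 13792.

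With so few Chd4 UMIs per cell, part of the ranking is counting noise. Each UMI was therefore put at random in 1 of 2 equal sets, the cells were ranked on 1 set, and Chd4 was measured in the other. The held-out set gave 144, 230 and 408 CPM in the lowest, middle and highest tertile under Chd4 siRNA, a log2 ratio of lowest over highest of −1.51 (−1.71 to −1.31). That is a 2.84-fold difference in Chd4 between these newly ranked tertiles, where the tertiles of the rule differ 7.47-fold. In the control library the held-out log2 ratio was −1.20 (−1.34 to −1.06), a 2.30-fold difference against 3.89-fold by the rule. The 2 libraries thus held cells that differ in Chd4 beyond counting. The values of 2.84-fold and 2.30-fold are not the full range among cells. Ranking on 1 set of so few UMIs puts some cells in the wrong tertile, which narrows the difference.

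The spread of Chd4 at equal depth gave the same picture. With each cell thinned to 9000 UMIs, Chd4 averaged 2.30 UMIs under Chd4 siRNA and 17.7% of cells had none, where Poisson counts of that mean give 10.0%. Under control siRNA the mean was 4.81 UMIs and 3.61% of cells had none, against 0.817% for Poisson counts. The Fano factor (variance over mean, 1 for Poisson counts) was 2.15 and 2.02. The spread left after subtracting Poisson noise, as a coefficient of variation, was 0.71 under Chd4 siRNA and 0.46 under control siRNA. At 6000 UMIs it was 0.60 and 0.50, and at 12000 UMIs 0.70 and 0.49, while the order of the Fano factors depended on the depth, with 1.57 and 1.83 at 6000 UMIs and 2.47 and 2.52 at 12000. Of 326 genes within 1.25-fold of the mean of Chd4 in the Chd4 siRNA library, 13 (3.99%) had a higher Fano factor, and the median of all 326 was 1.23. In the control library 12 of 120 such genes (10%) exceeded Chd4, and the median of all 120 was 1.39.

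**Figure D1:**
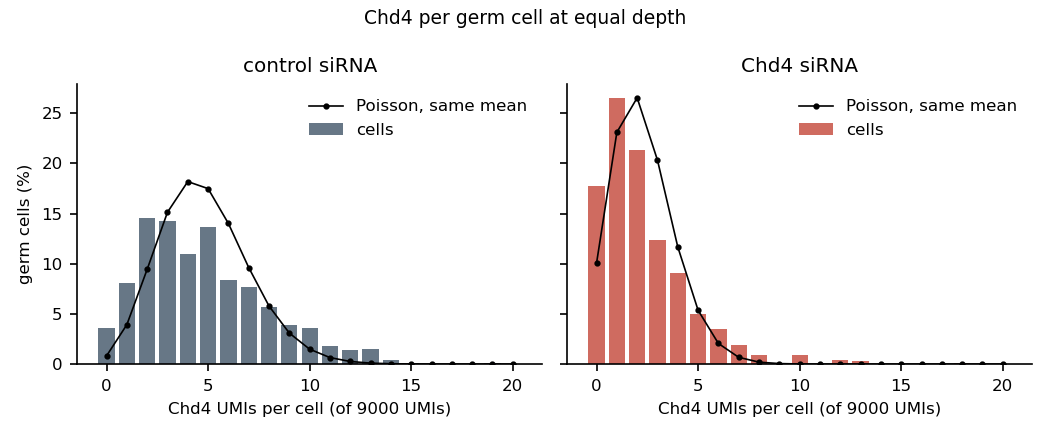
Share of ranked germ cells (%, vertical axis) with each number of Chd4 UMIs after thinning to 9000 UMIs (horizontal axis), in the control siRNA and Chd4 siRNA libraries; black points are Poisson counts of the same mean. In both libraries more cells than the Poisson counts lie at 0 and in the upper tail, with 17.7% of cells at 0 under Chd4 siRNA and 3.61% under control siRNA.

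Several measures moved with the ranking in both libraries, and their part in the gene results was not tested. Sequencing depth was near equal, with medians of 16192, 16269 and 15506 UMIs and 4122, 4144 and 4169 genes per cell in the lowest, middle and highest tertile under Chd4 siRNA. Ribosomal protein genes took 33.6%, 32.9% and 31.2% of UMIs there, and 35.1%, 33.6% and 32.3% under control siRNA. Cells scored as S phase made up 43.3% (36.8 to 49.9) of the lowest and 51.5% (44.9 to 58.1) of the highest tertile under Chd4 siRNA, against 37.1% and 52.5% under control siRNA. Germ cell markers, 11 measured, summed to 2712, 2696 and 2690 CPM, and 17 feeder fibroblast markers to 850.5, 873 and 776 CPM, against 848, 774 and 657 CPM under control siRNA. Lgals1 held most of the fibroblast sum, at 591, 618 and 534 CPM, and at 568, 552 and 435 CPM in control. The 5 fibroblast genes of the cell rule summed to 68.9, 61.3 and 68.9 CPM, and to 61.2, 66.2 and 70.6 CPM in control. No germ cell or fibroblast marker was at 0. In the Chd4 siRNA library, 3 of 4 Leydig cell, 3 of 6 macrophage and 4 of 8 spermatocyte and spermatid markers were at 0, and the summed levels of these 3 lists reached at most 2.53, 16.7 and 26.3 CPM in a tertile. All 8 Sertoli and 4 endothelial cell markers were detected, at sums of at most 27.3 and 16.5 CPM, and the endothelial sum ran from 8.86 to 16.5 CPM between lowest and highest tertile and from 9.16 to 17.2 CPM in control. Kdr alone held most of that rise, at 3.04, 5.46 and 9.96 CPM, and at 3.40, 5.65 and 11.8 CPM in control.

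Cells low in Chd4 had less RNA of genes linked to GDNF signalling and more of a set of stress and p53 target genes, while most genes were near equal between the tertiles. A log2 ratio below is CPM in the lowest over CPM in the highest tertile, so a negative value is lower in the cells with little Chd4. Of 5082 genes with at least 200 UMIs in both tertiles together, 96.7% lay within 0.5 of 0 on the log2 scale (a fold of 1.41), with a median of −0.08. Past that limit, 29 genes (0.571%) were higher in the lowest tertile and 141 (2.77%) lower. Under control siRNA the same limit gave 44 (0.905%) higher and 208 (4.28%) lower of 4861 genes, also with a median of −0.08. Intervals lay wholly above 0 for 337 genes (6.63%) and wholly below 0 for 930 (18.3%) under Chd4 siRNA, and for 331 (6.81%) and 1072 (22.1%) under control siRNA. The lean towards lower genes depends on the scaling: TMM factors gave 58 higher and 70 lower, DESeq2 size factors 44 and 85, and totals without ribosomal protein genes 41 and 89. The same 3 scalings gave 77 and 125, 65 and 142, and 64 and 144 under control siRNA.

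The control library shares no cells with the Chd4 siRNA library, so its tertiles are a separate measurement of what goes with Chd4. Of the 141 genes lower in Chd4-low cells, 120 had enough UMIs in the control tertiles, 111 of these were also lower there, as were 65.4% of all control genes, and 53 passed the limit. Those 53 are 37.6% of the 141 and 25.5% of the 208 control genes. Of the 29 higher genes, 21 were measured in control, 19 of them were also higher, as were 34.6% of all control genes, and 9 passed the limit, which is 31.0% of the 29 and 20.5% of the 44 control genes. The middle tertile lay between the lowest and highest for 135 of the 141 and for 22 of the 29. These genes were picked for the distance between those tertiles, so a middle value between them is largely given by the choice. No share over all genes was taken, and nothing is read from these counts about a graded response.

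The 12 lowest genes, ranked by the interval bound nearest to 0 and described here because the ranking chose them, were led by Cdc42ep3, an effector of the GTPase CDC42 (ENSMUSG00000036533, chr17:79333727-79355091). It was at 25.1, 48.9 and 63.2 CPM in the lowest, middle and highest tertile, a log2 ratio of −1.33 (−1.69 to −0.99). Control tertiles gave 24.6, 42.0 and 79.7 CPM and −1.70 (−2.05 to −1.36), so cells with more Chd4 had more Cdc42ep3 in each library. Arhgap31, a GTPase-activating protein for CDC42 and RAC1, followed at 28.4, 42.2 and 62.9 CPM, −1.15 (−1.49 to −0.82), with −1.26 (−1.61 to −0.92) under control siRNA. Tmem132e, a membrane protein gene, was at 17.2, 26.8 and 42.2 CPM with a log2 ratio of −1.29 (−1.73 to −0.88), against −1.57 (−2.05 to −1.11). These 3 had the most negative ratios of the 12, and the lowest and highest tertiles were apart beyond counting error in each library.

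Developmental transcription factors and receptors followed. Zic1, a zinc finger factor, was the most abundant of the 12 at 149, 206 and 259.6 CPM, with ratios of −0.80 (−0.95 to −0.66) and, in control, −0.77 (−0.92 to −0.62). The homeobox gene En1 was at 46.6, 63.0 and 92.8 CPM, a ratio of −0.99 (−1.26 to −0.73), and at 58.6, 97.2 and 117 CPM in control. Epha2, an ephrin receptor, was at 21.3, 37.5 and 44.3 CPM, with ratios of −1.06 (−1.45 to −0.67) and, in control, −1.17 (−1.57 to −0.78). All 3 had their middle tertile between the other two. Nav2, a cytoskeletal regulator, had −1.04 against −0.79 in control, the membrane collagen gene Col13a1 −1.05 against −0.71, and Pdzd2 −0.85 against −0.63. The noncoding Smkr-ps was at 35.2, 44.2 and 70.5 CPM, and at 34.0, 62.7 and 84.1 CPM in control. The remaining 2, Bcl6b and Egr2, belong to the GDNF-responsive genes below. All 12 were lower in Chd4-low cells of both libraries, with intervals below 0, and leaving out the cell with the most UMIs of a gene in each tertile moved none of these 12 or of the 12 higher genes by more than 0.10. With each cell thinned to 9000 UMIs before ranking, 11 of the 12 still passed the limit, with a median of −0.78 in place of −1.02, En1 ending just short of it, and Tmem132e came to −0.61.

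**Figure D2:**
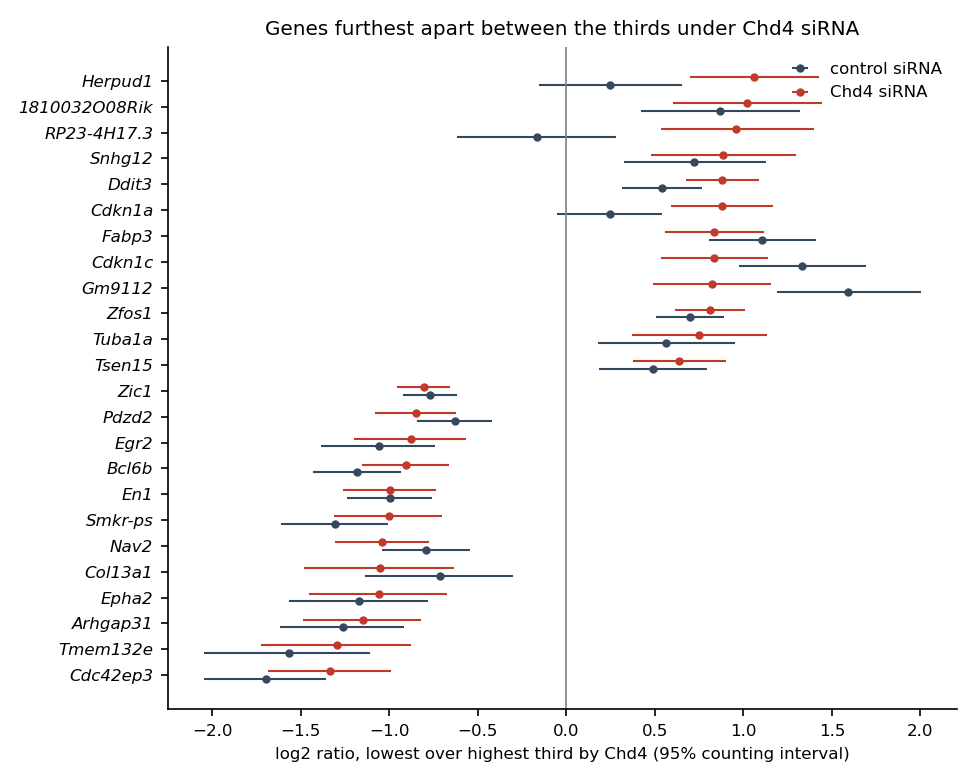
Log2 ratio of lowest over highest tertile by Chd4 (horizontal axis, with 95% counting intervals) for the 12 highest and 12 lowest genes of the Chd4 siRNA library, in that library (red) and in the control siRNA library (dark). The 12 lower genes have negative values in both libraries, whereas Herpud1, Cdkn1a and RP23-4H17.3 have control intervals that include 0.

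Genes of self-renewal and GDNF response were lower in Chd4-low cells as a list. Of 16 members measured (at least 20 UMIs), 8 were past the limit downward and 0 upward and 9 had intervals below 0, with a median of −0.52. Of all 10861 genes measured at that minimum, 9.85% were past the limit downward and 5.26% upward, 12.1% had intervals below 0 and 4.78% above, and the median was −0.08. With at least 200 UMIs, 5 of 9 members were past it downward. Under control siRNA 10 of 16 were past it downward and 2 upward, with a median of −0.64, where 11.8% and 6.4% of 10799 genes were, and 14.6% and 5.31% had intervals below and above 0. Ret, the GDNF receptor kinase, was at 68.9, 85.1 and 104 CPM over the tertiles and at 66.5, 82.7 and 101 CPM under control siRNA, with log2 ratios of −0.60 (−0.83 to −0.37) and −0.60 (−0.84 to −0.37). The Ret levels of the 2 libraries were close at each rank. Tertiles ranked anew for the held-out measure need not hold the same cells. Their Chd4 levels were 144, 230 and 408 CPM under Chd4 siRNA and 332, 524 and 763 CPM under control siRNA. Bcl6b, a repressor induced by GDNF, was at 54.2, 84.9 and 101 CPM and 51.3, 75.9 and 116 CPM, with ratios of −0.91 (−1.15 to −0.66) and −1.18 (−1.43 to −0.93). Egr2, an early growth response factor, was at 33.7, 45.9 and 61.9 CPM and 31.9, 60.3 and 66.6 CPM, with −0.88 (−1.20 to −0.57) and −1.06 (−1.39 to −0.74). In both libraries the lowest tertile of these 3 genes lay below the highest beyond counting error.

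Other GDNF-linked transcription factors mostly had the same direction. Lhx1, a LIM homeobox factor, was at 57.0, 83.1 and 95.2 CPM, with ratios of −0.74 (−0.99 to −0.50) and, in control, −0.83 (−1.06 to −0.59). Brachyury (T) was at 12.2, 14.1 and 29.1 CPM, with ratios of −1.26 (−1.78 to −0.76) and, in control, −1.70 (−2.32 to −1.11). Pou3f1 had −0.44 (−0.68 to −0.19) and Etv5, an ETS factor, −0.39 (−0.62 to −0.15), though Etv5 came to −0.05 when cells were thinned before ranking. Egr4 stood on the other side, at 0.20 (−0.01 to 0.41) under Chd4 siRNA and 0.68 (0.45 to 0.91) under control siRNA. The stem cell factors Id4, at 0.04 (−0.56 to 0.64), and Nanos2, at −0.38 (−0.85 to 0.09), had intervals that include 0, as had Egr4, Eomes, Shisa6, Mycn and Spry4. Dusp6, an ERK phosphatase that marks MAPK activity, was at 43.3, 51.6 and 72.4 CPM, with ratios of −0.74 (−1.03 to −0.46) and, in control, −1.08 (−1.38 to −0.79).

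Feedback genes of receptor tyrosine kinase and MAPK signalling, a list that shares Dusp6, Etv5 and Spry4 with the one before, had fewer members apart under Chd4 siRNA than under control siRNA. Of 13 measured, 2 were past the limit downward and 3 had intervals below 0, against 9 and 10 under control siRNA, with 0 upward in either and medians of −0.23 and −0.60. Of all genes, 9.85% were past it downward and 12.1% had intervals below 0 under Chd4 siRNA, and 11.8% and 14.6% in control. Below the median of all genes lay 11 of the 13 under Chd4 siRNA and 12 in control. With at least 200 UMIs, 2 of 7 members were past the limit downward under Chd4 siRNA and 5 of 6 in control, beside 2.77% and 4.28% of all genes. The difference of the log2 ratios, Chd4 siRNA minus control, had an interval above 0 for 3 members and below 0 for none, where 504 of 10525 genes (4.79%) with at least 20 UMIs in both had one above 0 and 465 (4.42%) one below. With at least 200 UMIs these shares were 5.88% and 4.96% of 4778 genes. Dusp4, another MAPK phosphatase, was at 21.8, 21.3 and 23.9 CPM under Chd4 siRNA and 13.3, 19.9 and 33.1 CPM under control siRNA, a difference of 1.18 (0.54 to 1.82). Ccnd1, a G1 cyclin, was at 60.5, 59.6 and 59.0 CPM and 40.3, 55.2 and 59.2 CPM, a difference of 0.59 (0.19 to 0.99). The last was Myc, at 9.12, 6.45 and 9.44 CPM and 7.07, 7.00 and 14.5 CPM. These 3 genes were highest in the highest tertile of control cells, while their lowest and highest tertiles were near level under Chd4 siRNA.

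**Figure D3:**
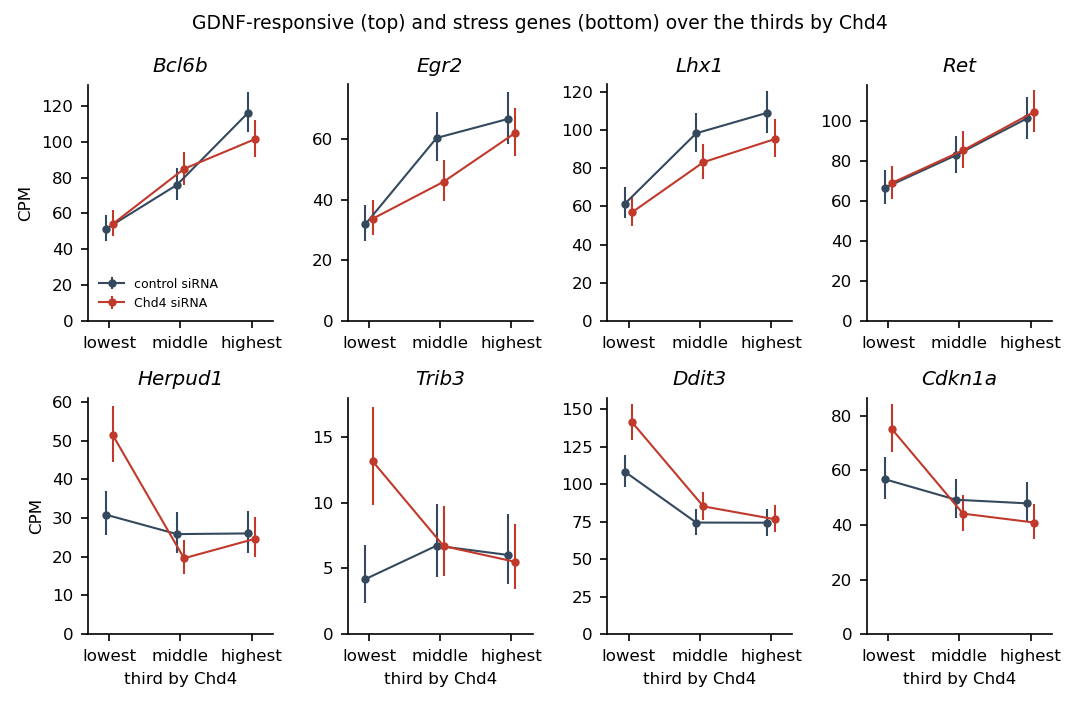
CPM with 95% Poisson intervals (vertical axis, from 0) in the lowest, middle and highest tertile by Chd4 (horizontal axis) for 4 GDNF-responsive genes (top) and 4 stress or p53 genes (bottom), under Chd4 siRNA (red) and control siRNA (dark). The top genes are higher at higher Chd4 in both libraries, while Herpud1, Ddit3 and Cdkn1a stand highest in the lowest tertile of the Chd4 siRNA library, at 51.4, 141 and 75.2 CPM.

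Genes of the integrated stress and unfolded protein responses were higher in Chd4-low cells of the Chd4 siRNA library. Of 15 measured, 6 were past the limit upward and 0 downward, 9 had intervals above 0, and the median was 0.34, where 5.26% of all genes were past the limit upward. With at least 200 UMIs, 2 of 10 members were past it (Herpud1 and Ddit3), where 0.571% of all genes were. The control tertiles gave 3 upward, 1 downward, 2 intervals above 0 and a median of −0.02. The shares of all genes there were 6.4% upward, 11.8% downward and 5.31% with intervals above 0. Summed over the list, the lowest, middle and highest tertiles had 1195, 962 and 946 CPM under Chd4 siRNA, and 941 and 914 CPM in the lowest and highest control tertiles. The step thus lay between the lowest tertile and the other two.

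Herpud1, a component of degradation at the endoplasmic reticulum (ENSMUSG00000031770, chr8:94386438-94395377), was at 51.4, 19.6 and 24.7 CPM, a log2 ratio of 1.06 (0.70 to 1.43). The control tertiles were at 30.9, 25.9 and 26.0 CPM, 0.25 (−0.16 to 0.65), and the difference between the libraries was 0.81 (0.29 to 1.34). The lowest tertile of the Chd4 siRNA library stood above the other 5 tertiles in this gene. Ddit3, the transcription factor CHOP, was at 141, 85.1 and 76.6 CPM under Chd4 siRNA and 108, 74.3 and 74.2 CPM under control siRNA, with ratios of 0.88 (0.67 to 1.09) and 0.54 (0.32 to 0.77) and a difference of 0.34 (0.04 to 0.64). In both libraries the lowest tertile was above the other two. Trib3, a pseudokinase induced by ATF4 and CHOP, was at 13.2, 6.70 and 5.51 CPM against 4.19, 6.73 and 6.03 CPM, a difference of 1.78 (0.60 to 2.96).

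Of the other members, all but Shmt2 had the same sign. Atf3 was at 12.7, 6.20 and 4.98 CPM, 1.35 (0.56 to 2.19), and Chac1, a glutathione-degrading enzyme, at 7.60, 6.45 and 3.67 CPM, 1.05 (0.09 to 2.08). Atf4 itself was at 162, 139 and 137 CPM, 0.24 (0.07 to 0.41), against −0.07 (−0.26 to 0.12) in control, and the serine synthesis gene Phgdh at 269, 222 and 211 CPM, 0.35 (0.22 to 0.48), against 0.07 (−0.08 to 0.22). Xbp1 had 0.34 (0.05 to 0.62) and the chaperone gene Hspa5 0.18 (0.03 to 0.33), while Asns, Shmt2, Dnajb9, Sdf2l1, Nupr1 and Sesn2, the last also a p53 target, had intervals that include 0. The difference from control had an interval above 0 for 5 of the 15 (Trib3, Phgdh, Ddit3, Herpud1 and Atf4) and below 0 for none. With cells thinned before ranking, the list's median was 0.15, Herpud1 and Ddit3 came to 0.47 and 0.31, under the limit, Phgdh to 0.28, and Atf4 to 0.06, below its interval.

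Since these genes stood together, their promoters were searched in RefSeq windows of GRCm38.p6, over the 250 bases before each start. A C/EBP-ATF element, the composite site bound by ATF4 and CHOP, was read as TGATGNAAN on either strand. It was found for 5 of 16 genes of the list and for 1052 of 27025 genes in all (3.89%). The ER stress element, read as CCAAT and CCACG with 9 bases of any kind between them, was found for 1 of the 16, Hspa5, and for 35 genes in all (0.130%). The stretches around the element in these 6 genes are shown because they let the shared letters be compared, 5′ to 3′ on the gene's strand, with the element in capitals.
Herpud1, chr8:94386291-94386349, plus strand: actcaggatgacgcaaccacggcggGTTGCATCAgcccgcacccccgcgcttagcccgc
Atf3, chr1:191183411-191183469, minus strand: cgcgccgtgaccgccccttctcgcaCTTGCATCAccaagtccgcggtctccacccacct
Chac1, chr2:119351023-119351081, plus strand: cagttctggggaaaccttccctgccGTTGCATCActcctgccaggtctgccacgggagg
Nupr1, chr7:126625548-126625606, minus strand: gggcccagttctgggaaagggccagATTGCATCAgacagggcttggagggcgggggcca
Asns, chr6:7693210-7693257, minus strand: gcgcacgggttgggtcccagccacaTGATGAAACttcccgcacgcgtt
Hspa5, chr2:34772000-34772068, plus strand: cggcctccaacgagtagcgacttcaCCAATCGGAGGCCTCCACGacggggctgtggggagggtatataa
In Herpud1, Atf3, Chac1 and Nupr1 the element is read on the opposite strand, and in the first 4 genes it lies between 194 and 103 bases before the start. Herpud1, Atf3 and Chac1 were past the limit in Chd4-low cells, whereas Nupr1 and Asns were at 0.27 and 0.10 with intervals that include 0, and Trib3, Ddit3 and Sesn2 were past it with neither element in this window. A match is a string of letters, and binding was not measured.

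Targets of p53 had higher medians in Chd4-low cells of both libraries. Of 10 measured, 5 were past the limit upward and 0 downward under Chd4 siRNA, with a median of 0.49, and 4 and 0 under control siRNA, with a median of 0.36. Of all genes at that minimum, 5.26% were past it upward under Chd4 siRNA and 6.4% under control siRNA. With at least 200 UMIs, 3 of 6 members were past it under Chd4 siRNA and 0 of 5 under control siRNA. Part of this contrast comes from the cut-offs: Phlda3 had 209 UMIs under Chd4 siRNA but 171 in control, where its ratio was larger. Ccng1 lay at 0.51 and 0.47, on either side of the limit. The shares of all genes were 0.571% and 0.905%. Cdkn1a, the cell cycle inhibitor p21 (ENSMUSG00000023067, chr17:29090976-29100727), was at 75.2, 44.2 and 40.9 CPM and in control at 56.8, 49.3 and 47.9 CPM, with ratios of 0.88 (0.59 to 1.17) and 0.24 (−0.05 to 0.54) and a difference of 0.63 (0.23 to 1.03). The feeder cells of the library had Cdkn1a at 865 CPM, and Phlda3 and Ccng1, described below, at 307 and 218 CPM. The summed feeder markers were at 850.5 CPM in the lowest and 776 CPM in the highest tertile. The fibroblast genes of the cell rule were level there, at 68.9 CPM in both, and the part of feeder RNA was not tested. Ccng1, a p53-induced cyclin, was at 137, 95.8 and 96.5 CPM, with ratios of 0.51 (0.31 to 0.70) and, in control, 0.47 (0.24 to 0.70). The proapoptotic Bbc3 (PUMA) was at 32.4, 18.6 and 17.8 CPM, with ratios of 0.86 (0.43 to 1.31) and, in control, 0.61 (0.14 to 1.08), and Phlda3, an AKT inhibitor, at 33.9, 27.5 and 19.7 CPM, with ratios of 0.79 (0.37 to 1.21) and, in control, 1.09 (0.61 to 1.58). Bax and Mdm2 were near level, at 0.15 (0.06 to 0.24) and 0.17 (−0.02 to 0.35). Thinning before ranking gave 0.49 for Cdkn1a, 0.17 for Ccng1 and 0.17 for the list's median.

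The rest of the 12 highest genes were members of none of the lists. Cdkn1c, the cell cycle inhibitor p57, was at 67.4, 56.8 and 37.8 CPM, a ratio of 0.83 (0.54 to 1.14), and in control tertiles at 63.3, 36.9 and 25.2 CPM, a ratio of 1.33 (0.98 to 1.69). Fabp3, a fatty acid binding protein gene, had 0.84 (0.56 to 1.12) against 1.10 (0.80 to 1.41) in control. The X-linked Gm9112 had 0.82 (0.49 to 1.16) against 1.59 (1.19 to 2.00). These 3 had larger ratios in the control tertiles. The noncoding RNA gene RP23-4H17.3 was at 35.2, 17.9 and 18.1 CPM, a ratio of 0.96 (0.53 to 1.40), but had −0.17 (−0.62 to 0.28) in control. Tsen15, a subunit of the tRNA splicing endonuclease, Tuba1a, an alpha tubulin, and the noncoding Snhg12, Zfos1 and 1810032O08Rik had ratios from 0.64 to 1.02, and from 0.49 to 0.87 in control. After thinning before ranking, 4 of the 12 still passed the limit (1810032O08Rik, RP23-4H17.3, Snhg12 and Zfos1), with a median of 0.48 in place of 0.86. The ratios of Cdkn1c, Fabp3 and Tuba1a came to 0.10, 0.25 and 0.21.

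Core genes of the undifferentiated state had no common direction, with 7 above and 7 below the median of all genes. Of 14 core genes measured, 1 was past the limit upward (Utf1) and 2 downward (Plvap and Dppa4). These counts are near the shares of all genes, 5.26% and 9.85%. The median was −0.13 (control −0.10). By their intervals 3 differed from control upward and 3 downward, where 4.79% and 4.42% of all genes did. Zbtb16, the self-renewal repressor PLZF, was at 84.3, 110.2 and 118 CPM under Chd4 siRNA, a ratio of −0.49 (−0.69 to −0.28), and level under control siRNA at 102, 99.4 and 102 CPM, a ratio of 0.01 (−0.20 to 0.21). The difference was −0.49 (−0.78 to −0.20), though Zbtb16 was 1 of the 5 germ genes in the cell rule, and comparing all cells below with all cells above the median rank gave −0.24. Dppa4, a pluripotency-associated chromatin gene, was at 45.6, 50.1 and 65.0 CPM, with ratios of −0.51 (−0.80 to −0.23) and, in control, −0.12 (−0.40 to 0.16). Pou5f1 (OCT4) ran the other way at 87.1, 78.4 and 65.0 CPM, a ratio of 0.42 (0.18 to 0.66), with 53.1, 62.7 and 56.2 CPM under control siRNA, a ratio of −0.08 (−0.37 to 0.21), but came to 0.06 when cells were thinned before ranking. Nanos3 was at 38.5, 43.2 and 43.5 CPM and in control at 54.2, 49.3 and 37.3 CPM, a difference of −0.72 (−1.16 to −0.27).

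Progenitor genes lay 5 above and 3 below the median of all genes in the Chd4 siRNA library. Intervals were above 0 for 2 of them, Sohlh1 and Ddit4, and below 0 for 0, beside 4.78% and 12.1% of all genes. Of 8 progenitor genes measured, 1 was past the limit in each direction, with a median of 0.24, while in control 6 of 9 were past it upward and 0 downward, with a median of 0.56. Of all genes, 5.26% were past it upward and 9.85% downward under Chd4 siRNA, and 6.4% and 11.8% in control. With at least 200 UMIs, 1 of 3 was past it upward in control and 0 of 3 under Chd4 siRNA, where 0.905% and 0.571% of all genes were. Sohlh1, a factor that drives differentiation, was at 116, 119 and 97.6 CPM, with ratios of 0.25 (0.05 to 0.45) and, in control, 0.44 (0.23 to 0.64). Ddit4 had 0.42 (0.14 to 0.71) and, in control, 0.39 (0.09 to 0.70). The difference from control had an interval below 0 for 3 of 8 progenitor genes (Rhox10, Nanos3 and Upp1) and above 0 for 0, beside 4.42% and 4.79% of all genes. Of 10 differentiating spermatogonia genes, 3 were past the limit upward and 1 downward, beside the same 5.26% and 9.85% of all genes. Their median was 0.15 (control −0.05), which turned to −0.12 when cells were thinned before ranking. Crabp1, a retinoic acid binding protein gene, was at 55.5, 47.4 and 38.8 CPM and in control at 29.8, 32.3 and 31.0 CPM, a difference of 0.57 (0.09 to 1.05). Ccnd2, a cyclin of dividing spermatogonia, was at 532, 622 and 759 CPM and 533, 657 and 759 CPM, nearly equal in both libraries. Kit, which marks differentiating cells, was hardly detected, at 1.27, 0.99 and 0.52 CPM.

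NuRD partners of CHD4 differed little between the tertiles. Of 15 subunit genes listed, 12 were measured, none passed the limit in either library, and the medians were −0.10 and 0.00. The deacetylase genes Hdac1 and Hdac2 were at 68.6, 78.4 and 73.4 CPM and 191, 167 and 201 CPM, and the methyl-CpG binding domain gene Mbd3 at 105, 105 and 115 CPM. Their ratios were −0.10 (−0.34 to 0.15), −0.07 (−0.22 to 0.07) and −0.12 (−0.32 to 0.08), all with intervals that include 0. The histone chaperones Rbbp4 and Rbbp7 had 0.03 and −0.05, the zinc finger subunits Gatad2a and Gatad2b −0.05 and −0.14, Cdk2ap1 −0.10, and Mta3 −0.21. Chd5, an alternative ATPase, was at 12.4, 14.1 and 10.8 CPM, a ratio of 0.21 (−0.42 to 0.84). Intervals lay below 0 for Mta1, at 29.1, 30.3 and 38.0 CPM, a ratio of −0.39 (−0.75 to −0.02), and Chd3.

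Chd3 encodes a paralogue of CHD4 that serves as the ATPase of other NuRD complexes, and its ratio differed from control by its interval. That is 1 of 12 subunit genes, beside 4.42% of all genes that differed downward, and nothing is read from it about the complex. It was at 44.6, 42.9 and 59.5 CPM under Chd4 siRNA, −0.42 (−0.71 to −0.13), and at 61.2, 66.8 and 61.4 CPM under control siRNA, 0.00 (−0.27 to 0.27). The difference was −0.41 (−0.80 to −0.03). Against all ranked control cells, at 63.1 CPM, the lowest tertile stood at −0.50 (−0.75 to −0.26) and the highest at −0.08 (−0.31 to 0.13). Other remodellers, 18 measured, had a median of −0.10 (control −0.14) with 0 past the limit. Among them Chd7 was higher in Chd4-low cells at 0.36 (0.11 to 0.61), with −0.19 (−0.46 to 0.09) in control. Baz1b, a subunit of ISWI complexes, was lower at −0.37 (−0.55 to −0.19), with −0.20 (−0.38 to −0.02) in control.

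Some genes were higher at higher Chd4 in control cells and less so, or not, under Chd4 siRNA. The 6 with the highest difference of log2 ratios were Pik3cd, Mpzl2, Utp15, Batf, Set and Nefm. Pik3cd, a catalytic subunit of PI 3-kinase, was at 25.3, 24.3 and 26.5 CPM under Chd4 siRNA and 19.6, 38.8 and 49.0 CPM under control siRNA, a difference of 1.26 (0.70 to 1.81). Set, a histone chaperone, was at 259, 259 and 259 CPM and 255, 336 and 395 CPM, a difference of 0.63 (0.46 to 0.80). Mpzl2, an adhesion protein gene, was at 84.3, 95.5 and 96.0 CPM and 49.7, 84.8 and 118 CPM, a difference of 1.05 (0.73 to 1.38). In Pik3cd and Set the Chd4 siRNA tertiles were nearly flat where the highest control tertile was well above the lowest, whereas Mpzl2 came to −0.59 under Chd4 siRNA when cells were thinned before ranking. The leucine zipper factor Batf differed by 0.88 (0.49 to 1.27), the neurofilament gene Nefm, with −0.45 (−0.58 to −0.32) under Chd4 siRNA, by 0.62 (0.43 to 0.81), and Utp15, of ribosomal RNA processing, by 0.93 (0.43 to 1.42).

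In the other direction stood Hmgn5, Igfbp6, Cox7a1, Asb9, Praf2 and S100a6. Hmgn5, a nucleosome-binding protein gene, was at 64.3, 47.6 and 64.8 CPM under Chd4 siRNA and 74.9, 42.8 and 31.0 CPM under control siRNA, a difference of −1.28 (−1.69 to −0.88). Igfbp6, of the IGF-binding proteins, was at 44.8, 46.7 and 46.2 CPM and 54.4, 44.4 and 29.0 CPM, a difference of −0.95 (−1.40 to −0.50). Both were lower at higher Chd4 in control cells, and neither lowest tertile stood apart from the highest under Chd4 siRNA. S100a6 differed by −0.68 (−0.96 to −0.39), and it was at 6187 CPM in the feeder cells. It is itself among the summed fibroblast markers. Their sums were 848 and 657 CPM in the lowest and highest control tertiles and 850.5 and 776 CPM under Chd4 siRNA. The fibroblast genes of the cell rule, without S100a6, ran the other way in control, at 61.2 and 70.6 CPM. Under Chd4 siRNA they were at 68.9 CPM in both tertiles. The part of fibroblast RNA was not tested. All 12 genes were picked by this difference, and they are a description.

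Cell cycle and ribosomal lists had small medians under Chd4 siRNA. S phase genes, 41 measured, had a median of −0.11 with 2 past the limit in each direction, and −0.29 in control with 8 downward. Beside these and the G2/M counts below, 5.26% of all genes were past it upward and 9.85% downward, and 11.8% downward in control. Among them Clspn, a replication checkpoint gene, was at 58.2, 77.9 and 87.9 CPM, a ratio of −0.59 (−0.84 to −0.35), and Prim1, a primase subunit, at 35.7, 22.8 and 23.9 CPM, with ratios of 0.58 (0.19 to 0.98) and, in control, −0.08 (−0.50 to 0.34). Prim1 came to 0.10 when cells were thinned before ranking. Of the 41 S phase genes, 7 had intervals below 0 under Chd4 siRNA and 16 in control, beside 12.1% and 14.6% of all genes. The difference from control had an interval above 0 for 8 of the 41 and below 0 for 0, beside 4.79% and 4.42% of all genes. For the G2/M list these counts were 3 and 3. G2/M genes, 53 measured, had a median of −0.07 (control −0.14) with 2 upward and 1 downward, the mitotic kinase gene Cdk1 at −0.55 (−0.96 to −0.15). Over the alternative settings the S and G2/M medians ran from −0.16 to 0.00 and from −0.21 to 0.06 under Chd4 siRNA, so the sign of the G2/M median depends on the setting. When cells were ranked within the called phases, 30 genes were past the limit upward and 130 downward, and the stress and GDNF lists had medians of 0.33 and −0.44. All 76 cytosolic ribosomal protein genes lay above the all-gene median in each library, 71 with intervals above 0 under Chd4 siRNA and 67 in control, where 1 lay below 0, with medians of 0.10 and 0.13, and 0 past the limit.

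Large chromatin and transcription genes stood on the other side. Of 25 measured, 10 had intervals below 0 and none above, where 12.1% and 4.78% of all genes did. The median was −0.19 (control −0.22). Trrap, a scaffold of histone acetyltransferase complexes, was at 41.0, 51.4 and 61.1 CPM, with ratios of −0.57 (−0.87 to −0.28) and, in control, −0.07 (−0.35 to 0.20), and the histone methyltransferase genes Kmt2a and Kmt2c had −0.32 (−0.48 to −0.15) and −0.49 (−0.72 to −0.26). Transcript length moved with the ratio over all genes: the fifth with the shortest transcripts had a median of −0.03 and the fifth with the longest −0.15, against −0.01 and −0.16 in control. Chd4 itself has a longest annotated transcript of 6697 bases, and the part of length in these ratios was not tested. The remaining lists are given by their medians. Heat shock genes had a median of 0.03, cholesterol synthesis genes 0.06, glycolysis genes 0.04, proteasome genes 0.00, respiratory chain genes −0.03, splicing factor genes −0.05, meiotic genes −0.06, germline genome-defence genes −0.11 and apoptosis regulators −0.11, among them Mcl1, a survival factor, at 24.3, 35.5 and 37.2 CPM (−0.62 against −0.07 in control). Interferon response genes had a median of −0.15 against 0.33 in control, immediate early genes 0.00 against 0.26, and histone genes 0.22 against 0.16.

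**Figure D4:**
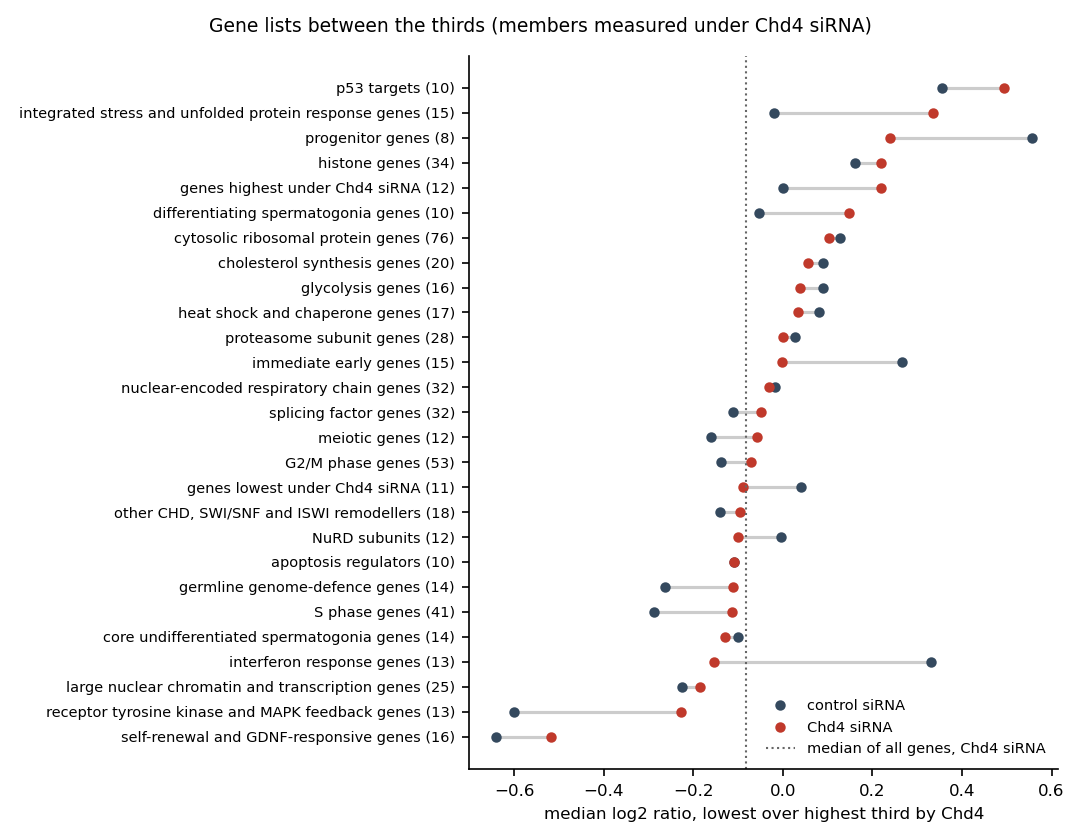
Median log2 ratio of lowest over highest tertile by Chd4 (horizontal axis) for each gene list (number of members measured under Chd4 siRNA in brackets), under Chd4 siRNA (red) and control siRNA (dark); the dotted line is the median of all genes, −0.08. The p53 and stress lists stand furthest right in the Chd4 siRNA library, at 0.49 and 0.34, and the GDNF-responsive list furthest left, at −0.52.

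The last comparison asked whether genes set apart between the libraries followed the Chd4 left in a cell. The 11 genes taken as lowest under Chd4 siRNA were picked with the difference between the libraries known, so their direction against control is given by that choice, and only the order of the tertiles is described. The 3 tertiles are set against the same 665 control cells, which they share. The median log2 ratio to control of the 11 genes was −1.14 in the lowest, −1.15 in the middle and −1.02 in the highest tertile. Tertiles ranked anew for the held-out measure had Chd4 at 144 CPM in the lowest and 408 CPM in the highest. These need not hold the same cells as the tertiles compared here.

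Yrdc, a tRNA-modifying enzyme gene (ENSMUSG00000028889, chr4:124850679-124855242), was at 25.6, 21.3 and 24.7 CPM over the tertiles and at 66.8 CPM in all control cells. Jund, a subunit of the AP-1 transcription factor, was at 30.4, 31.8 and 30.7 CPM against 65.3 CPM. Taf10, of the TFIID and SAGA complexes, was at 55.2, 57.1 and 65.6 CPM against 120.3 CPM, and Polr2l, a shared RNA polymerase subunit, at 66.8, 63.5 and 71.1 CPM against 131 CPM. Each of these 4 was about level over the tertiles, with log2 ratios between lowest and highest tertile from −0.25 to 0.05 and intervals that include 0. The same held for Bod1 at 50.1, 53.9 and 52.2 CPM against 106 CPM. The predicted genes Gm10076, Gm8186 and Gm10269, at −0.10, 0.06 and 0.03, also had intervals that include 0. So had the histone gene Hist1h2ap at −0.26 (−0.64 to 0.12), which ran from −0.45 to −0.10 over the alternative settings. Reads of such genes may be shared with near-identical copies. Gatad1, a zinc finger protein gene, was graded at 27.3, 32.5 and 40.1 CPM against 68.4 CPM, a ratio of −0.55 (−0.92 to −0.19), and Klf2 was at 12.9, 14.6 and 18.6 CPM against 33.5 CPM, a ratio of −0.53 (−1.08 to 0.01).

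For the 12 genes picked in the same way as highest under Chd4 siRNA, the medians against control were 0.83, 0.89 and 0.71 in the lowest, middle and highest tertile. Mdk, the growth factor midkine (ENSMUSG00000027239, chr2:91929805-91932297), was graded, at 25.1, 16.4 and 11.5 CPM against 9.39 CPM in control. Its ratio of lowest over highest tertile was 1.12 (0.59 to 1.67), against −0.60 (−1.36 to 0.15) in the control tertiles, and its level in the highest tertile stood at 0.30 (−0.24 to 0.82) to control. Fndc4, a fibronectin type III domain gene, was graded too, at 21.0, 16.6 and 10.2 CPM against 8.67 CPM, with ratios of 1.04 (0.47 to 1.63) and, in control, 0.35 (−0.41 to 1.13). The feeder cells of the library had Fndc4 at 87.9 CPM, and the part of feeder RNA in its levels was not tested. Reep5, an endoplasmic reticulum shaping gene, was at 163, 153 and 133 CPM against 126, 106 and 68.8 CPM in the control tertiles, lower at higher Chd4 in both, with ratios of 0.30 (0.13 to 0.47) and 0.88 (0.65 to 1.10). The other 9, among them Pdlim4 at 21.0, 22.3 and 16.5 CPM and Atp9a at 32.7, 34.2 and 37.0 CPM, had intervals between the tertiles that include 0.

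**Figure D5:**
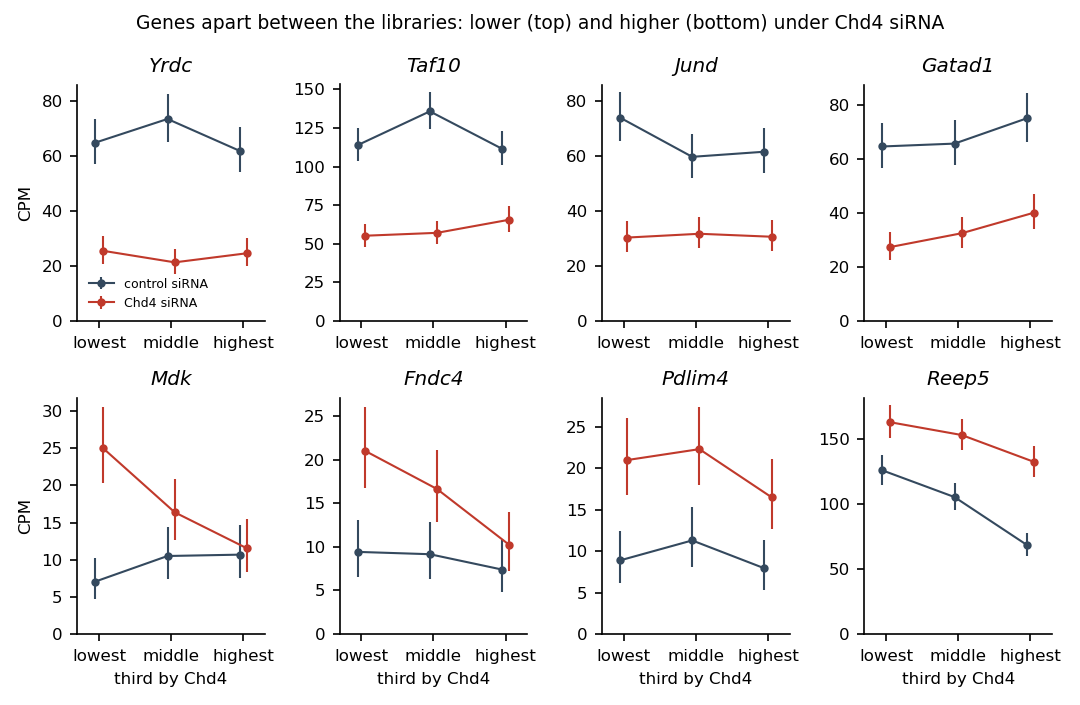
CPM with 95% Poisson intervals (vertical axis, from 0) in the tertiles by Chd4 (horizontal axis) for 4 genes lower (top) and 4 higher (bottom) under Chd4 siRNA (red) than control siRNA (dark), picked with that difference known. Yrdc and Jund are about level over the red tertiles. Taf10 is somewhat higher in the highest red tertile, within counting error, and these genes lie below the dark tertiles. Gatad1 is higher at higher Chd4, and Mdk and Fndc4 approach the control level in the highest tertile.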

How the data were processed

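Droplet RNA-seq (10x, version 2 chemistry) was measured in 2 libraries, 1 control siRNA and 1 Chd4 siRNA. The deposited matrices hold whole-number UMI counts per gene and cell, not normalized; per the submitters' processing notes the tools were Cell Ranger 2.1.0 and Seurat with mm10. As used here each matrix ends within a cell, which was dropped, and the gene names cover the first 26893 of 27998 rows; the 1105 rows without a name (12.6% and 12.1% of UMIs in the Chd4 siRNA and control library) were left out. Mitochondrial genes, chromosome 19 and part of chromosome 18 were therefore not analysed here, and no mitochondrial share stands beside the stress genes as a sign of cell quality. The 817 control and 799 Chd4 siRNA barcodes listed share 1.

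UMIs were summed per tertile, divided by the tertile's total and given as CPM. The log2 ratio has an exact conditional binomial (Clopper-Pearson) 95% interval, and a level has an exact Poisson interval; both cover counting error only. The difference between libraries has a normal interval from the 4 summed counts. A gene was past the limit at a log2 ratio of at least 0.5 in size. Members and lists were chosen with earlier results of these data known. Named genes are the 12 highest and 12 lowest of the genes with at least 200 UMIs and the 6 highest and 6 lowest differences between libraries, both by the interval bound nearest to 0, up to 4 members of each list by the same bound, all NuRD subunits measured and the genes set apart between the libraries; others give a list's range and were named after their values were seen. Phases were called with scanpy 1.11.5, and doublets with Scrublet (9 and 18 of the ranked cells, kept in). TMM (edgeR 4.0.16) and DESeq2 1.42.0 gave scaling factors only, as alternatives. The ratios were tested on simulated data. Coordinates and lengths are GENCODE vM21 (GRCm38), and promoters RefSeq GRCm38.p6. Python 3.11.15, numpy 2.4.6, scipy 1.17.1, pandas 2.3.3 and R 4.3.3 were used.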

Additional observations from a re-analysis of the deposited data

Results flagged for a closer look

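Nek2 and Utf1 had intervals on opposite sides of 0 in the 2 libraries; the difference was not tested, since each group is 1 library. Nek2, a centrosome kinase gene of the G2/M list, was at 33.2, 22.1 and 23.1 CPM in the lowest, middle and highest tertile by Chd4 under Chd4 siRNA and at 16.0, 19.7 and 24.1 CPM under control siRNA. Its log2 ratios were 0.52 (0.12 to 0.93) and −0.59 (−1.09 to −0.11), a difference of 1.12 (0.51 to 1.73). Utf1, a chromatin gene of early undifferentiated spermatogonia, was at 13.9, 8.69 and 7.87 CPM and 8.38, 14.8 and 14.5 CPM. Its ratios were 0.82 (0.16 to 1.52) and −0.79 (−1.47 to −0.13), a difference of 1.62 (0.72 to 2.52). Both genes were thus highest in Chd4-low cells of the Chd4 siRNA library and lowest in Chd4-low cells of the control library.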

How the results depend on the processing

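No paired analysis was possible because each group is 1 library that pools its replicates, and for the same reason no replicate could be left out. Counts of genes past the limit under Chd4 siRNA, 29 higher and 141 lower in Chd4-low cells, were 4 and 64 with cells thinned to 9000 UMIs before ranking, 58 and 70 with TMM factors, and 44 and 85 with DESeq2 size factors. They were 234 and 610 at a minimum of 50 UMIs, 5 and 27 at 500, 166 and 618 at a limit of 0.3, and 2 and 7 at a limit of 1. The lower count was 80 for cells below against above the median rank and 89 with totals without ribosomal protein genes. In control, 44 and 208 became 13 and 104 when thinned, 77 and 125 with TMM, 353 and 731 at 50 UMIs, 11 and 55 at 500, 182 and 732 at 0.3 and 7 and 25 at 1, and the lower count was 121 below against above the median rank. TMM moved the median of all genes by 0.08 and DESeq2 size factors by 0.06 (control 0.09 and 0.07). The ribosomal median of 0.10 became 0.19 with TMM, 0.16 with DESeq2 and 0.15 with totals without ribosomal protein genes; in control 0.13 became 0.22, 0.19 and 0.19, and 0.0897 below against above the median rank. The Chd4 log2 ratio of −2.90 was −1.51 in the held-out set of UMIs, and −1.96 in control was −1.20. This alternative, and leaving out the cell with most UMIs of a gene in each tertile, were chosen after seeing the data. The 12 highest and 12 lowest genes kept their sign under each alternative run on them. Of the single-gene ratios over all alternatives, 88 lay outside their counting interval and 1952 did not, and no ratio past the limit (44 genes) changed sign. With 1 library per group, no value here measures the spread between cultures.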
